A study of Hakea prostrata with 26 samples.

Results

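RNA of white roots of Hakea prostrata, a Proteaceae species native to very phosphorus-poor soils in south-western Australia, was sequenced after growth in hydroponics at 1, 10 and 50 µM phosphate (Pi). These 3 libraries, chosen by their labels as white root at a stated Pi level, are part of a series of 26 whose stated purpose was to compare stages of leaf growth in the field. Each Pi level has 1 white root library, so the Pi level and the library cannot be told apart and differences between levels were described by size, with no p-value. Libraries used beside them were mature leaf at the same 3 Pi levels and cluster root on days 0, 1, 4, 7 and 12, all from hydroponics and with 1 library each. The labels name no genotype, age or Pi supply for the cluster roots, and they do not say how many plants gave a library or whether root and leaf came from the same plants.

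White roots are the ordinary unclustered lateral roots of such plants, beside which they form cluster roots, bottlebrush-like organs of densely packed rootlets whose carboxylate release frees soil phosphate. In model plants such as Arabidopsis, roots short of phosphate raise genes for Pi transporters of the plasma membrane, secreted acid phosphatases and membrane lipid remodelling under the transcription factor PHR1, and SPX proteins hold that factor back when Pi is ample. Hakea prostrata is known for forming fewer cluster roots at higher Pi supply and for a limited capacity to lower its Pi uptake. The deposited values carry Trinity assembly IDs that no file pairs with a gene name, so none of these genes could be located, and transcripts are given by ID without a function.

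The values are estimated counts per assembled transcript for 51697 transcripts of 25047 genes, 11687 of which had several isoforms. Total estimated counts were 11508234 at 1 µM, 11508234 at 10 µM and 9486439 at 50 µM. The equal totals at 1 and 10 µM did not reflect a library deposited under both labels, since 90.9% of the values differed and counts of summed genes differed by a chi-square of 84.4 per degree of freedom, against 36.9 between 10 and 50 µM and 58.2 between 1 and 50 µM. Transcripts with at least 100 counts in a white root library numbered 20355 and are the ones described. That minimum was met by 18564 at 1 µM, 16478 at 10 µM and 16088 at 50 µM, and 13.9%, 16.9% and 15.9% of all values were 0. More transcripts thus entered through the 1 µM library, and the part of this in the differences between levels was not tested. In this bulk tissue, fewer cells of a type and less RNA per cell cannot be told apart.

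The 1 µM library stood apart from the other white roots. Its log2 CPM (counts scaled to library size, by TMM) correlated across transcripts at r = 0.843 with the 10 µM library and at 0.853 with the 50 µM library, while those libraries correlated at 0.914 with each other. Its highest correlation was with cluster root of day 1, at 0.881, and its lowest with a root library was with cluster root of day 12, at 0.743. The 10 µM library reached 0.844 with cluster root of day 1 and the 50 µM library 0.827. With the isoforms of a gene summed the order of these values was the same. They were 0.917 for 1 µM white root with cluster root of day 1, 0.895 and 0.905 with the other white roots, and 0.955 between 10 and 50 µM. The place of cluster root of days 0 and 4 did change. By transcripts their values with the 1 µM library, 0.857 and 0.861, were above those of both other white roots. By summed genes they were below, at 0.883 and 0.8948 against 0.8952 for the 10 µM library. Correlation with the mature leaf libraries lay between 0.298 and 0.314 for all 3 white roots, so all were far nearer to root than to leaf libraries. These are correlations across 27355 transcripts, or 15776 genes, which are not independent replicates.

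**Figure D1:**
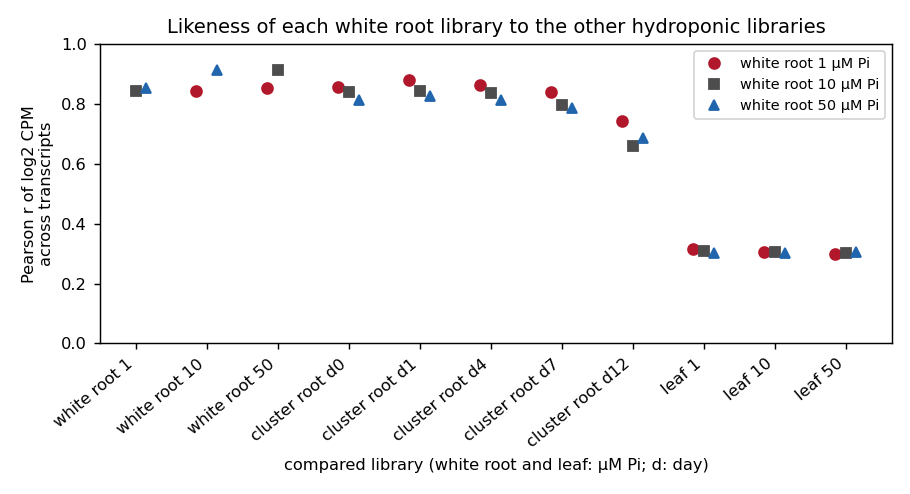
Pearson correlation of log2 CPM across transcripts between each white root library (symbols) and every other hydroponic library (horizontal axis). The 1 µM library lies below the pair of 10 and 50 µM libraries among white roots and above them for cluster root, with its highest value, 0.881, at cluster root day 1.

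Most transcripts differed little between Pi levels, and the step from 1 to 10 µM held more large differences than the step from 10 to 50 µM. The steps are unequal, that from 1 to 10 µM being the larger in log10 Pi and the smaller in µM. The part of this in the counts was not tested. From 1 to 10 µM, 516 transcripts were at least 4-fold higher on log2 CPM with a prior count of 2 (2.54% of those described) and 936 at least 4-fold lower (4.6%), and 55.7% differed by under 1.5-fold. From 10 to 50 µM, 383 were higher (1.88%) and 268 lower (1.32%), and 70.0% differed by under 1.5-fold. Over the whole range from 1 to 50 µM, 482 were higher (2.37%) and 772 lower (3.79%). The median log2 difference over all described transcripts was 0.08, -0.07 and 0.04 in the same order, with and without libraries at 0 set to a bound of 3 counts per library. The comparison of 10 with 50 µM does not use the 1 µM library, and it is the only one of these in which higher transcripts outnumbered lower ones.

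Summing isoforms gave fewer differences. Of 13546 genes with at least 100 counts in a white root library, 184 were at least 4-fold higher from 1 to 10 µM (1.36%) and 421 lower (3.11%). From 10 to 50 µM, 122 genes were higher (0.901%) and 64 lower (0.472%), and from 1 to 50 µM 202 were higher (1.49%) and 330 lower (2.44%). Some transcript differences were exchanges between isoforms. From 1 to 10 µM, 48 genes held both an isoform at least 4-fold higher and an isoform at least 4-fold lower, which is 10.2% of the genes with a higher isoform and 5.88% of those with a lower one. The summed count of 31 of these 48 genes differed by under 1.5-fold.

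In all, 2004 transcripts (9.85%) differed at least 4-fold between some pair of the 3 levels. Taking as the odd one out the library left when the 2 closest levels are paired, the 1 µM library was odd for 1192 of them (59.5%), with 707 higher and 485 lower there than at 10 and 50 µM. The 10 µM library was the odd one for 486, with 135 higher and 351 lower, and the 50 µM library for 326, with 126 higher and 200 lower. Among 828 summed genes the 1 µM library was the odd one for 558 (67.4%). A transcript close to the threshold is decided by a small margin, the nearest values from 1 to 10 µM being 1.9995 and 2.0007 on the log2 scale.

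**Figure D2:**
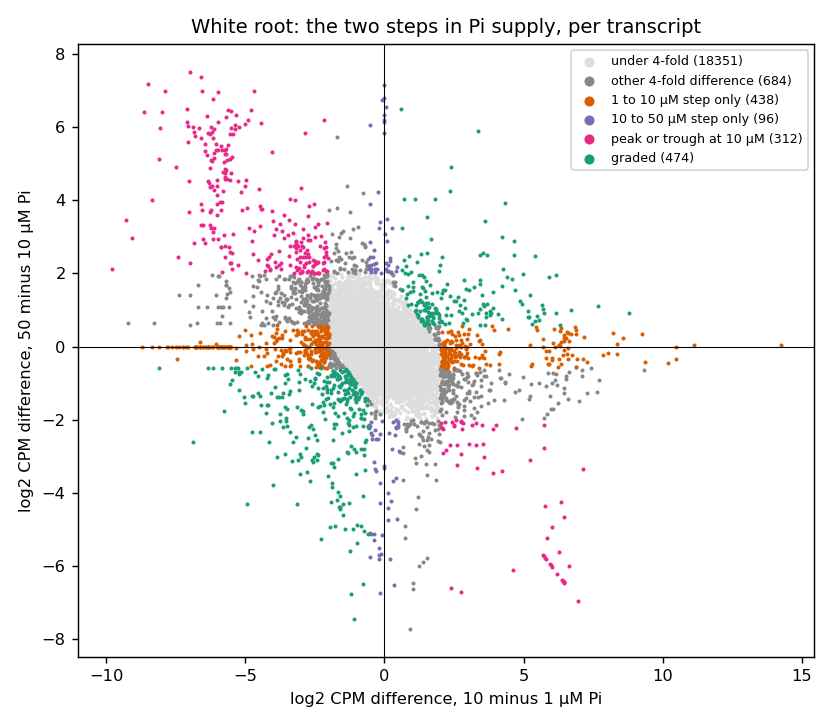
Log2 CPM difference from 1 to 10 µM Pi (horizontal) against that from 10 to 50 µM (vertical) for the 20355 white root transcripts described, coloured by class. The cloud is wider along the horizontal axis, and 252 transcripts with a trough at 10 µM lie at the upper left.

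Transcripts were then sorted by the shape of their response. A graded difference, with both steps in 1 direction, each at least 1.5-fold and the whole at least 4-fold, was seen in 186 transcripts higher (0.914%) and 288 lower (1.41%) with more Pi. A difference only from 1 to 10 µM, with the other step under 1.5-fold, was seen in 185 higher (0.909%) and 253 lower (1.24%). A difference only from 10 to 50 µM was seen in 44 higher (0.216%) and 52 lower (0.255%), a balance that changed sides for summed genes, with 20 higher and 9 lower. A peak at 10 µM, with both steps at least 4-fold, was seen in 60 (0.295%) and a trough in 252 (1.24%). The remaining 684 had a 4-fold difference of none of these shapes. These percentages are of the transcripts described and are themselves the background, since the same libraries set the classes.

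The graded transcripts that were higher with more Pi held 0.127% of the counts at 1 µM, 0.397% at 10 µM and 1.02% at 50 µM. Both steps exceeded counting error, by exact binomial intervals at 95%, in 180 of the 186, and the step from 1 to 10 µM was the larger in 140. The intervals rest on the same counts that set the class, so they are no separate support for a graded shape. The summed gene was also at least 2-fold higher from 1 to 50 µM for 120 of the 186, and 47 were the only isoform of their gene. TRINITY_DN2642_c0_g2_i1, such a single isoform, was at 0.737 CPM at 1 µM, 18.3 CPM at 10 µM and 283 CPM at 50 µM. Each level was above the one before, 24.9-fold from 1 to 10 µM (counting interval 12.8 to 55.3) and 15.4-fold from 10 to 50 µM (13.3 to 17.9). Its cluster root levels lay between 0.134 and 4.32 CPM, all below the 10 µM white root. TRINITY_DN10333_c0_g1_i19 had 0 counts at 1 µM and stood at 80.8 CPM at 10 µM and 154 CPM at 50 µM, at least 627-fold higher over the range. The pattern of its gene was not graded, since the sum of its 2 isoforms was 111 CPM at 1 µM, 703 CPM at 10 µM and 321 CPM at 50 µM.

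The graded transcripts that were lower with more Pi held 1.23% of the counts at 1 µM, 0.283% at 10 µM and 0.112% at 50 µM. Both steps exceeded counting error in 239 of the 288, again by the counts that set the class, and the summed gene was at least 2-fold lower for 179. TRINITY_DN21323_c0_g1_i13 was at 131 CPM at 1 µM, at 0.941 CPM at 10 µM and at 0 counts at 50 µM, at least 424-fold lower over the range. Its gene, with 5 isoforms, went from 270.3 CPM to 1.49 CPM and 0.414 CPM. In cluster roots the transcript stood at 684 CPM on day 0, 426 CPM on day 1, 284 CPM on day 4, 56.0 CPM on day 7 and 0.268 CPM on day 12, so it was high in young cluster root and in white root at 1 µM, and it had 0 counts in the 3 mature leaf libraries. TRINITY_DN2199_c1_g1_i11 was at 75.5 CPM at 1 µM, 0.0941 CPM at 10 µM and 0 counts at 50 µM. It counts as graded by the prior count of 2 alone, because its second step is from 1 read to 0, and it was at least 244-fold lower from 1 to 50 µM.

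Transcripts higher only from 1 to 10 µM included the most abundant of all large differences. The class held 0.153% of the counts at 1 µM, 1.54% at 10 µM and 1.60% at 50 µM. TRINITY_DN1280_c0_g1_i11 had 0 counts at 1 µM and stood at 3602 CPM at 10 µM and 3713 CPM at 50 µM. It was at least 14657-fold higher at 10 than at 1 µM and made up 21.5% of the summed CPM of its class. The gene, with 2 isoforms, was at 424 CPM at 1 µM against 4070 CPM at 10 µM and 3859 CPM at 50 µM, 9.61-fold higher from 1 to 10 µM. In the cluster root libraries this isoform was at 0.107 to 0.201 CPM while its gene was at 86.3 to 142 CPM, and neither had counts in mature leaf. TRINITY_DN2876_c0_g1_i13 had 0 counts at 1 µM and stood at 266 CPM at 10 µM and 211 CPM at 50 µM. All 6 isoforms of its gene summed to 0.0828 CPM at 1 µM, 822 CPM at 10 µM and 724 CPM at 50 µM, and the gene was at no more than 0.268 CPM in any cluster root library and at 0 in mature leaf.

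Transcripts lower only from 1 to 10 µM held 1.39% of the counts at 1 µM, 0.169% at 10 µM and 0.203% at 50 µM. For 187 of these 253 the summed gene was also at least 2-fold lower. Of those from genes with several isoforms, 67.3% had a gene lower by that much, against 43.2% higher by that much for the opposite class. TRINITY_DN5089_c0_g1_i8 was at 77.7 CPM at 1 µM and had 0 counts at 10 and 50 µM, at least 275-fold lower from 1 to 10 µM. Its gene went from 109 CPM to 0.0929 CPM and 0.310 CPM. That gene was present in every other hydroponic library, at 55.9 to 66.9 CPM in mature leaf and 99.1 to 144 CPM in cluster root, so its low level was seen in the white roots at 10 and 50 µM and in no other library of these. TRINITY_DN2868_c0_g2_i1 was at 50.9 CPM at 1 µM and had 0 counts at 10 and 50 µM, at least 180-fold lower from 1 to 10 µM, while its gene went from 89.1 CPM to 18.1 CPM and 9.21 CPM. In mature leaf the transcript was at 7.32 CPM at 1 µM and at 0 counts at 10 and 50 µM. Its gene did not follow in leaf, at 24.1 CPM, 23.1 CPM and 39.2 CPM at 1, 10 and 50 µM.

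Few transcripts differed only from 10 to 50 µM. Among those higher, TRINITY_DN1717_c0_g3_i4, singled out with its values known, was at 1666 CPM at 50 µM and made up 42.2% of the 3947 summed CPM of the class. Its log2 difference was -0.52 from 1 to 10 µM and 3.89 from 10 to 50 µM, and that of its gene, with 2 isoforms, -0.39 and 3.69. TRINITY_DN15700_c0_g1_i1, a single isoform, was at 0.410 CPM at 1 µM, 0.376 CPM at 10 µM and 59.5 CPM at 50 µM, 158-fold higher over the second step (counting interval 61.4 to 582). In mature leaf it was at 0.155 CPM at 1 µM, 0 at 10 µM and 26.6 CPM at 50 µM, so 50 µM was far the highest in both organs. Its levels at 1 and 10 µM rest on 5 and 4 reads in white root and on 3 and 0 in leaf. TRINITY_DN17288_c0_g1_i6 had 0 counts at 1 and 10 µM and was at 26.2 CPM at 50 µM, at least 92.9-fold higher, and its gene went from 7.71 CPM at 10 µM to 34.6 CPM at 50 µM. TRINITY_DN250869_c0_g1_i11 was at 9.42 CPM, 10.3 CPM and 0.207 CPM at 1, 10 and 50 µM, 49.7-fold lower over the second step (counting interval 13.4 to 415). It was at 16.1 to 93.4 CPM in the 5 cluster root libraries, above the white root at 50 µM in each. TRINITY_DN22235_c0_g3_i1 was at 29.2 CPM, 34.3 CPM and 1.65 CPM in the same order, 20.8-fold lower over the second step (12.6 to 36.8), and it was at no more than 0.302 CPM in cluster root.

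**Figure D3:**
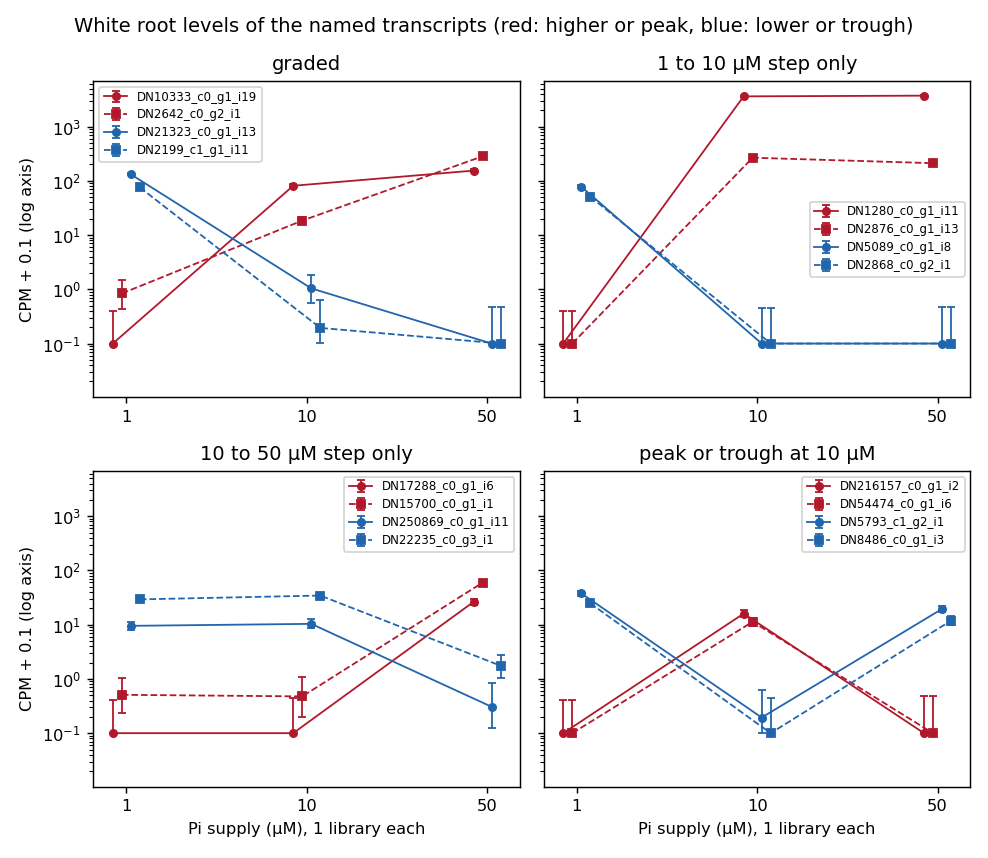
CPM, with 0.1 added for a log axis, of the named transcripts of each class in the white root libraries at 1, 10 and 50 µM Pi, with 1 library per level. Bars are exact Poisson intervals at 95%, which cover counting error only. TRINITY_DN1280_c0_g1_i11 reaches 3602 CPM at 10 µM from 0 counts at 1 µM.

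A trough at 10 µM was more frequent than a peak, with 252 against 60 transcripts, and 65 against 17 summed genes. A trough can meet the count minimum through the 1 or the 50 µM library, and a peak only through the 10 µM one. This favours troughs, and its part in the balance was not tested. The summed gene followed in both steps by at least 2-fold for 87 of the 252 troughs. For 146 of the 252, and for 30 of the 60 peaks, the summed gene did not turn at 10 µM by 1.5-fold. TRINITY_DN5793_c1_g2_i1, a single isoform, was at 37.7 CPM at 1 µM, 0.0941 CPM at 10 µM and 19.4 CPM at 50 µM. The 10 µM level rests on 1 read, and it was 400.4-fold below the 1 µM level with a counting interval of 71.5 to 15849. It was at 14.2 to 31.4 CPM in the 5 cluster root libraries, all above the white root at 10 µM. TRINITY_DN8486_c0_g1_i3 was at 24.7 CPM, 0 counts and 11.8 CPM at 1, 10 and 50 µM, and its gene at 38.1 CPM, 7.53 CPM and 19.9 CPM. Of the peaks, TRINITY_DN216157_c0_g1_i2 was at 15.9 CPM at 10 µM and at 0 counts in the other white roots, all mature leaf and all cluster root libraries. TRINITY_DN54474_c0_g1_i6 was at 11.2 CPM at 10 µM and at 0 counts at 1 and 50 µM, while its gene was at 5.71 CPM, 12.1 CPM and 1.45 CPM.

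The most abundant transcripts past the threshold from 1 to 10 µM, chosen once their values were known, were far above counting error. TRINITY_DN322_c1_g2_i1 was at 1215 CPM at 1 µM, 99.5 CPM at 10 µM and 775 CPM at 50 µM, 12.2-fold lower from 1 to 10 µM (counting interval 11.5 to 13.0) and 7.79-fold higher from 10 to 50 µM. In the other hydroponic organs it was low, at 0 to 4.79 CPM in cluster root and at 0 counts in mature leaf. TRINITY_DN2914_c0_g1_i2 was at 1053 CPM, 257 CPM and 325 CPM at 1, 10 and 50 µM, 4.09-fold lower from 1 to 10 µM (3.93 to 4.27). Its cluster root levels were 0.256 CPM on day 0, 6.53 CPM on day 1, 4.90 CPM on day 4, 126 CPM on day 7 and 360.1 CPM on day 12, highest on the last days. TRINITY_DN43823_c0_g2_i5, a single isoform, was at 294 CPM, 1399 CPM and 690.4 CPM at 1, 10 and 50 µM, 4.75-fold higher from 1 to 10 µM (4.58 to 4.93). In cluster root it was at 724 CPM on day 0, 1333 CPM on day 1 and 17.8 CPM on day 12, so its white root level at 10 µM was near the highest level of young cluster root.

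The cluster root libraries, which did not set the classes, were closer to the 1 µM white root than to the others in median level, for the graded transcripts and those that differed only from 1 to 10 µM. Scaled over the 8 root libraries, the median log2 CPM of the graded lower transcripts was 4.01, 2.15 and 0.47 at 1, 10 and 50 µM, and 3.15 to 3.59 on the 5 cluster root days. For those lower only from 1 to 10 µM it was 4.11, 1.18 and 1.25 in white root and 2.76 to 3.46 in cluster root. For the graded higher transcripts it was 1.11, 3.22 and 4.64 in white root and 1.11 to 1.94 in cluster root, and for those higher only from 1 to 10 µM 1.32, 4.37 and 4.31 in white root and 1.78 to 2.14 in cluster root. For those with a trough at 10 µM it was 3.69, -1.09 and 3.22 in white root and 2.57 to 3.08 in cluster root, nearest to 50 µM. Over all described transcripts it was 4.30 to 4.37 in white root and 4.15 to 4.35 in cluster root. The higher classes met the count minimum through the white roots where they are high, which favours low levels elsewhere. Under 100 counts in every cluster root library were found for 119 of the 186 graded higher transcripts. The same held for 97 of the 185 higher only from 1 to 10 µM. Day 12 of the cluster root had the lowest total of the root libraries, at 8163081 estimated counts.

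Change with cluster root age was also described for these classes. From day 0 to day 12, 10.7% of the 17893 described white root transcripts counted in cluster root were at least 4-fold higher and 16.7% at least 4-fold lower. Of the transcripts lower only from 1 to 10 µM in white root, 171 were counted in cluster root, and 63 (36.8%) were higher on day 12 and 26 (15.2%) lower. Of 215 graded lower transcripts 71 (33.0%) were higher on day 12 and 45 (20.9%) lower, and of 149 with a trough at 10 µM 46 (30.9%) were higher and 18 (12.1%) lower. The graded higher transcripts, which differed the other way in white root, also had more members higher on day 12 than lower, 27 (40.3%) against 6 (8.96%) of 67. For summed genes at least 4-fold lower from 1 to 10 µM the numbers were 102 (38.2%) higher and 33 (12.4%) lower of 267, beside 9.52% and 15.4% of all genes counted in both. For those at least 4-fold higher from 1 to 10 µM they were 22 (25.6%) higher and 32 (37.2%) lower of 86. These counts include genes that reached 100 counts in cluster root on day 12 alone. With the minimum required on an earlier day, chosen after seeing the data, the genes lower from 1 to 10 µM had 75 (31.8%) higher and 33 (14.0%) lower of 236, and those higher had 16 (20.5%) higher and 32 (41.0%) lower of 78, beside 8.68% and 15.6% of 12315 genes. By the same rule the graded higher transcripts had 18 (31.6%) higher and 6 (10.5%) lower of 57. Those lower only from 1 to 10 µM had 49 (32.2%) higher and 26 (17.1%) lower of 152. The graded lower transcripts had 54 (28.0%) higher and 45 (23.3%) lower of 193. Those with a trough at 10 µM had 25 (19.7%) higher and 18 (14.2%) lower of 127. In these last classes the excess of higher members was thus smaller than without the rule. Over all 17398 transcripts the shares were 9.31% higher and 17.1% lower.

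**Figure D4:**
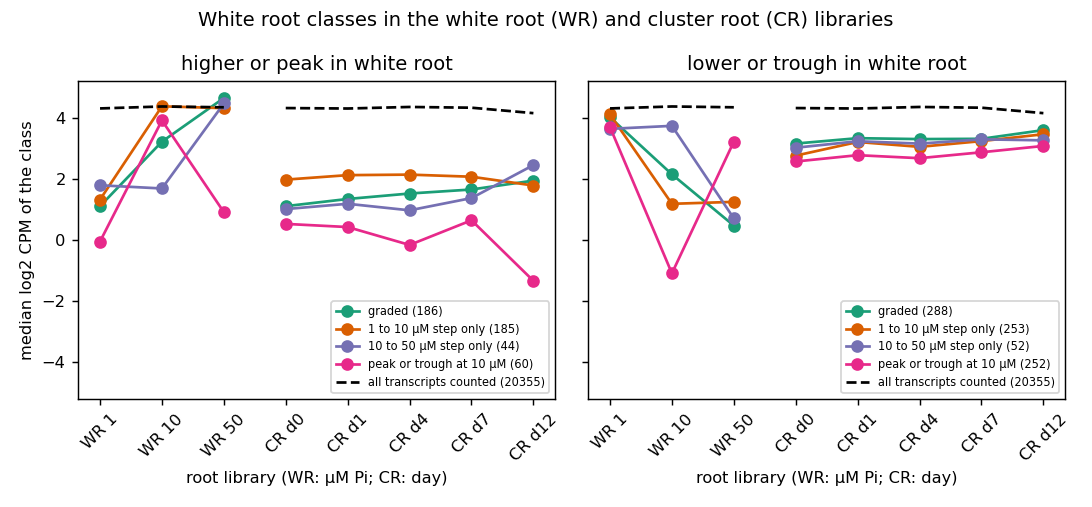
Median log2 CPM of each white root class in the 3 white root (WR) and 5 cluster root (CR) libraries, scaled together, for classes higher or with a peak (left) and lower or with a trough (right). The dashed line is the median over all described transcripts, between 4.15 and 4.37. In cluster root the graded lower class stays between 3.15 and 3.59.

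Mature leaf was sampled at the same Pi levels. Of the 90 graded higher white root genes, 27 were at least 4-fold higher in leaf from 1 to 50 µM, 0 were at least 4-fold lower, and 50 had under 100 counts in every leaf library and were not counted there. Of the 10978 genes counted in both organs, 4.2% were higher and 1.31% lower in leaf. The 27 are 67.5% of the 40 counted in leaf, but 19 of the 40 reached 100 counts only in the 50 µM leaf, and all 19 are among the 27, so the count minimum itself favoured that direction. With the minimum required in leaf at 1 or 10 µM, an alternative chosen after seeing the data, 8 of 21 (38.1%) were higher and 0 lower, beside 2.53% higher and 1.36% lower of 10573 genes. With the minimum required at 1 µM it was 2 of 14 (14.3%), beside 1.91%.

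Of the 202 white root genes at least 4-fold higher from 1 to 50 µM, 90 were counted in leaf, 48 of these (53.3%) were higher there and 0 lower, and the 48 were 10.4% of the 461 genes higher in leaf. Of the 90, 38 reached the minimum only at 50 µM, and with the minimum required at 1 or 10 µM 13 of 52 (25.0%) were higher. Genes lower in white root had larger shares than all genes in both directions in leaf. Of the 330 at least 4-fold lower from 1 to 50 µM, 174 were counted in leaf. Among these, 18 (10.3%) were lower and 21 (12.1%) higher there, beside 1.31% and 4.2% of all genes counted in both organs. The 18 were 12.5% of the 144 genes lower in leaf. With the minimum required at 1 or 10 µM, 18 (11.3%) were lower and 13 (8.18%) higher of 159, beside 1.36% and 2.53% of all genes.

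At the level of transcripts, 14718 were counted in both organs, of which 6.25% were at least 4-fold higher and 5.84% at least 4-fold lower in leaf. The graded higher class had 43 of 80 (53.8%) higher in leaf and 7 (8.75%) lower. Of these 80, 33 reached the minimum only at 50 µM, and among the 47 counted at 1 or 10 µM 12 (25.5%) were higher and 7 (14.9%) lower, beside 3.47% and 6.18% of 13916 transcripts. The graded lower class had 16 (11.3%) higher and 23 (16.2%) lower of 142, and 5 (4.07%) and 23 (18.7%) of the 123 counted at 1 or 10 µM. Of transcripts lower only from 1 to 10 µM, 17 (13.3%) were higher and 20 (15.6%) lower of 128, and 7 (6.31%) and 20 (18.0%) of 111. Transcripts higher only from 1 to 10 µM did not lean to higher in leaf. They had 18 (25.0%) higher and 17 (23.6%) lower of 72, and 8 (13.8%) and 17 (29.3%) of 58. Of those with a trough at 10 µM, 27 (22.3%) were higher and 16 (13.2%) lower of 121, and 15 (14.4%) and 16 (15.4%) of 104. Whether root and leaf shared plants or a harvest is not stated, and its part in these counts was not tested.

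**Figure D5:**
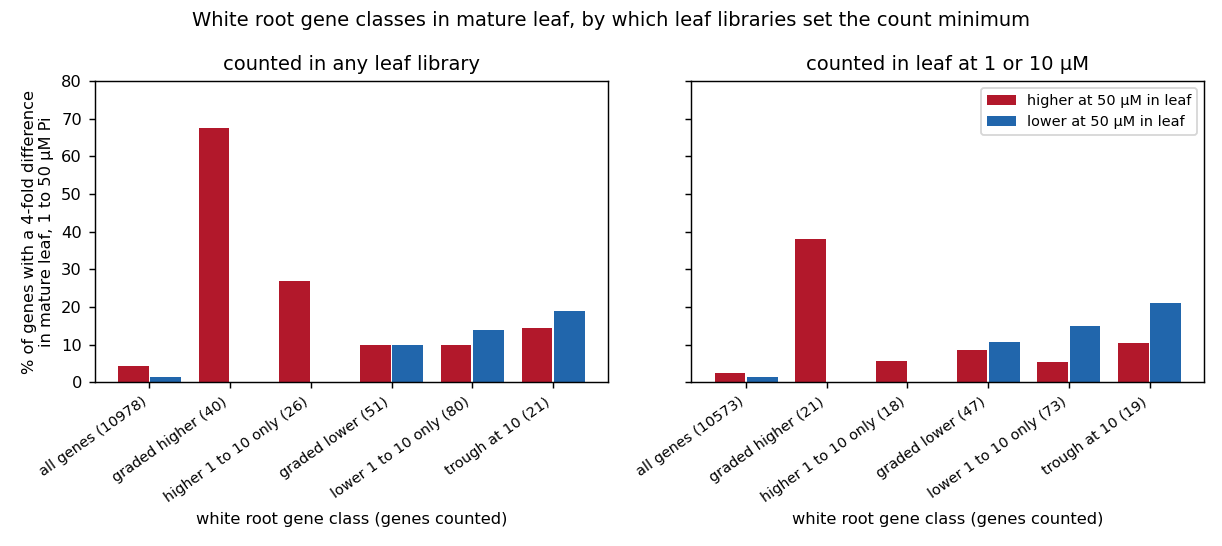
Percentage of summed genes with at least a 4-fold difference between 1 and 50 µM Pi in mature leaf, for all genes and for white root gene classes, with the number of genes counted beside each name. In the graded higher class 67.5% were higher in leaf when the count minimum could be met in any leaf library (left) and 38.1% when it had to be met at 1 or 10 µM (right), beside 4.2% and 2.53% of all genes.

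Transcripts with a 4-fold difference in the same direction in both organs from 1 to 50 µM were likewise named with their values known. TRINITY_DN2642_c0_g2_i1, described above as graded, had 0 counts in leaf at 1 and 10 µM and 13.5 CPM at 50 µM, at least 87.1-fold higher. TRINITY_DN1240_c0_g1_i17 was at 0.164 CPM, 24.7 CPM and 97.1 CPM in white root and at 0, 1.73 CPM and 14.4 CPM in leaf. Its gene, with 6 isoforms, was at 39.4 CPM, 109 CPM and 338 CPM in white root and at 122 CPM, 180 CPM and 301 CPM in leaf, ascending in both organs. Among those lower, TRINITY_DN8289_c0_g1_i14 was at 48.9 CPM, 2.82 CPM and 0.516 CPM in white root and at 5.72 CPM, 0 and 0 in leaf. Its gene was at 303 CPM, 18.8 CPM and 11.0 CPM in white root and at 52.5 CPM, 6.82 CPM and 6.13 CPM in leaf, so most of the difference lay between 1 and 10 µM in both organs. TRINITY_DN2199_c1_g1_i11 was at 34.0 CPM, 0.636 CPM and 0.828 CPM in leaf, again high at 1 µM alone, and at 27.2 to 94.8 CPM in cluster root.

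Whether the slope on log10 Pi differed between white root and mature leaf was tested over the 6 libraries of these organs. Of 36407 transcripts, 0 passed the quasi-likelihood test of edgeR with Benjamini-Hochberg adjustment at 0.05 (0%; smallest adjusted p = 0.397), while 4215 (11.6%) had an unadjusted p under 0.05. That number was 1532 without the white root library at 1 µM, 2656 without that at 10 µM and 2432 without that at 50 µM, and 6589 without the mature leaf library at 1 µM and 6559 without that at 10 µM. DESeq2 called 853 of these transcripts, 360 with the higher slope in white root, and gave no adjusted p for 9882. Of the 4215 transcripts with an unadjusted p under 0.05 in edgeR, 2989 were also under 0.05 in DESeq2. The 2 residual degrees of freedom of this fit measure departure from a straight line on log10 Pi and not the spread between plants. TRINITY_DN5089_c0_g1_i8, absent from white root at 10 and 50 µM and present in leaf at all levels, had a slope difference of -11.62 on the log2 scale per 10-fold Pi (edgeR, adjusted p = 0.397), and TRINITY_DN1240_c0_g1_i17 one of -0.06 (edgeR, adjusted p = 1).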

How the data were processed

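Libraries of white roots, mature leaves and cluster roots in hydroponics were made with a strand-specific total RNA kit that removes plant ribosomal RNA, per the labels' protocols. The authors deposited estimated counts per assembled transcript. Trim Galore (0.6.6), kallisto (version not stated) and DESeq2 (1.30.1) appear in the submitters' processing notes, without their role. The sources used here give neither the assembly nor its filters or strand handling. Between 56.4 and 59.5% of the white root values were not whole, and estimated counts were rounded for all steps. Isoforms of a gene share reads, so a single isoform is uncertain where its gene has several.

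The members, classes and thresholds were chosen with earlier results of these data known. CPM and log2 CPM (prior count 2) used TMM scaling within the 3 white root, 3 mature leaf or 5 cluster root libraries separately, so levels set across organs are only roughly comparable. Intervals are exact Poisson or binomial at 95% and cover counting error only, and a fold against 0 counts is a bound against 3 counts in that library. Named transcripts have the largest difference in their class and direction among those whose summed gene differed at least 2-fold the same way. Slopes were tested with edgeR 4.0.16 (filterByExpr by tissue, TMM, quasi-likelihood) and DESeq2 1.42.0 in R 4.3.3. The calling of classes and the slope test were run on simulated data with known patterns. Classes were simulated with counting error alone and slopes on a straight line, so the simulations do not measure the precision of these results. Other scalings, count minimums, prior counts, fold thresholds and summed genes were the alternatives, with count minimums in leaf and cluster root that do not use the last library added after seeing the data.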

Additional observations from a re-analysis of the deposited data

How the results depend on the processing

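The order of the steps, with more 4-fold differences from 1 to 10 µM than from 10 to 50 µM and more lower than higher transcripts from 1 to 10 µM, held under all 10 alternatives. The counts themselves followed the thresholds by construction. With the differences from 1 to 10, 10 to 50 and 1 to 50 µM in that order, then the classes graded, 1 to 10 µM only, 10 to 50 µM only and turn at 10 µM, the counts were 1452, 651, 1254, 474, 438, 96 and 312 as reported. With a minimum of 20 counts they were 4637, 2875, 4096, 1468, 1318, 507 and 1377. With a minimum of 500 counts they were 321, 91, 298, 110, 132, 13 and 36. At an 8-fold threshold they were 762, 307, 669, 292, 205, 43 and 160. At a 2-fold threshold they were 4590, 2475, 3563, 668, 1917, 559 and 1242. For summed genes they were 605, 186, 532, 201, 195, 29 and 82. A prior count of 10 gave 204 turns at 10 µM. A 2-fold bound on the flat or smaller step gave 272 graded transcripts, 709 that differed only from 1 to 10 µM and 149 only from 10 to 50 µM.

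A prior count of 0.5, scaling by DESeq2 size factors and TMM after leaving out the 20 most abundant transcripts kept every count within 1.5 times of the reported one. Scaling by total count did too, and it moved the median log2 difference of all transcripts by -0.20 from 1 to 10 µM and by 0.14 from 10 to 50 µM. Among transcripts that differed only from 10 to 50 µM, 45.8% were higher as reported, 69.2% with a minimum of 500 counts, 69.0% for summed genes and 52.8% with total counts, so their direction on balance depends on the setting. Among turns at 10 µM peaks were 19.2% as reported and 36.7% at a 2-fold threshold. All 144 values of named transcripts under other scalings, prior counts or summed genes had the direction reported, and 141 were still at least 4-fold. These values come from 24 entries that hold 21 distinct transcripts. The transcripts were named for large differences, and class members also for a summed gene that differed the same way. Their direction was therefore close to fixed beforehand, and its keeping says little about stability.

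The slope test gave 0 calls in edgeR with DESeq2 size factors, without the count filter, for summed genes and in each fit that left out 1 library, where the range was 0 to 0, and 853 with DESeq2. With so few residual degrees of freedom these counts of 0 say nothing about stability. The number with an unadjusted p under 0.05, 4215 as reported, was 1532 to 6589 in the fits that left out 1 library. Of the graded higher genes counted in leaf, 67.5% were higher there as reported and 38.1% with the leaf minimum required at 1 or 10 µM, an alternative chosen after seeing the data. No paired analysis was possible because each Pi level has 1 white root library and its label carries no replicate number. With 1 library per level, precision is that of counting alone, and variation between plants was not measured.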

Other observations

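Some genes were counted in certain white root libraries and nearly absent from the others. Of all summed genes, 43 had at least 100 counts in 1 or 2 white root libraries and at most 3 counts in the rest. The most frequent pattern was a gene counted at 1 µM alone, with 25 genes, followed by genes counted at both 10 and 50 µM and nearly absent at 1 µM, with 11. Of the 25 genes, 5 had at least 100 counts in all 5 cluster root libraries, 5 in all 3 mature leaf libraries, and 1 had at most 3 counts in all 8 of these. Of the 11 genes, 8 had at most 3 counts in all 8. The same shares over all described genes were not taken, so whether these counts are unusual cannot be told. The other patterns had 1 to 3 genes each. TRINITY_DN2876_c0_g1_i13 and TRINITY_DN5089_c0_g1_i8 belong to genes of the second and the first kind.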
